A study of Homo sapiens with 4 samples.

Results

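Aminoacyl-tRNA synthetases were followed across 4 arrays of the human breast cancer line SUM159. The members were 37 listed genes, 21 for cytosolic enzymes and 16 for mitochondrial ones, and a gene was taken as measured where a probe set carried its name alone. That held for 33 genes, 18 cytosolic and 15 mitochondrial, of 19775 genes on the arrays. MARS, QARS and TARS2 had probe sets annotated together with a microRNA gene, and these 3 and 1 other listed gene were not analysed here. All 33 measured genes reached a log2 level of 6 in every array, so that the filter on low levels removed none of them. That level is a chosen cut, called background here, and background itself was not measured. Symbols are those of the array (AARS is now AARS1, EPRS is EPRS1 and TARSL2 is TARS3).

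A synthetase joins an amino acid to its tRNA, the step that fixes which amino acid a codon is read as. Cytosolic enzymes serve the ribosomes that translate nuclear genes. A separate set with names ending in 2, also encoded in the nucleus, is imported to serve the ribosomes of mitochondria, and GARS and KARS each encode both forms. TARSL2, despite its ending, encodes a cytosolic threonyl enzyme. Several cytosolic enzymes sit in a complex held by scaffold proteins. When uncharged tRNA builds up, the kinase GCN2 phosphorylates eIF2, translation of ATF4 rises, and ATF4 raises transcription of amino acid synthesis and transport genes together with many cytosolic synthetase genes.

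SUM159 is a mesenchymal, hormone receptor-negative line, used here with a pTRIPZ construct for the microRNA miR-100 that responds to doxycycline (DOX); cells of all 4 groups carried it. A flow sort then split the cells by aldehyde dehydrogenase (ALDH) activity, used to enrich stem-like breast cancer cells, and both fractions were kept in suspension. Each fraction was cultured without DOX (control) and with it, which gives 4 groups of 1 array each. Titles give 10 h of doxycycline, while descriptions give 13 h and doxorubicin, and DOX stands here for the treated samples.

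The cell line's markers VIM, CD44 and ZEB1 lay between 11.07 and 13.79 in log2 level, while ESR1, PGR and the epithelial CDH1 stayed under 6 in every array and ERBB2 lay between 9.22 and 10.17. Of the immune, endothelial and erythroid markers with a probe set, all 7 stayed under 6. Transcripts of 2 ALDH genes did not follow the sort throughout. ALDH1A1 was at 11.77 (control) and 10.66 (DOX) in ALDH-positive and 10.72 and 10.86 in ALDH-negative cells, and ALDH1A3 at 6.48 and 6.64 against 5.86 and 7.79. The fractions overlapped in both genes, and in the DOX arrays both were lower in the ALDH-positive fraction. The deposited array medians lay between 6.18 and 6.22. A measure of RNA integrity, the 3′ minus 5′ signal of GAPDH, was 0.56 and 0.33 in the ALDH-positive and 0.87 and 0.98 in the ALDH-negative arrays, and for ACTB 3.11 and 3.50 against 3.70 and 3.87. This measure moved with ALDH status. With DOX in ALDH-positive cells it rose for ACTB, from 3.11 to 3.50, and fell for GAPDH, from 0.56 to 0.33. Its part in the ALDH and DOX differences below was not tested. In bulk RNA a lower level in every cell and fewer expressing cells cannot be told apart.

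Sequences near the start sites of the synthetase genes are shown because a motif there was more frequent in cytosolic than in mitochondrial members. The motif is the C/EBP-ATF response element, which ATF4 binds, searched on both strands as TGATGNAA in RefSeq windows (GRCh38.p14) from 250 bases before to 50 bases after a gene's start. Of the 37 listed genes, 30 had a window. The motif was found in 7 of 16 cytosolic and 1 of 14 mitochondrial genes, against 4.46% of 27305 genes with a window. The narrower form TGATGCAA was in 6 of the 16 and none of the 14, against 1.08% of all genes. Each line gives 30 bases 5′ to 3′ on the gene's own strand, with the motif in capitals (TTGCATCA is TGATGCAA read on the other strand).
AARS (chr16:70289675-70289704, minus strand): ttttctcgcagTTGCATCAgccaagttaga
CARS (chr11:3057407-3057436, minus strand): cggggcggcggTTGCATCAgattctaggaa
GARS (chr7:30594834-30594863, plus strand): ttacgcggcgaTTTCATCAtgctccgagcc
IARS (chr9:92293692-92293721, minus strand): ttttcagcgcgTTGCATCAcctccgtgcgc
NARS (chr18:57621804-57621833, minus strand): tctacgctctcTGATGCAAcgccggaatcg
TARS (chr5:33440956-33440985, plus strand): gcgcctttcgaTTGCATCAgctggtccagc
YARS2 (chr12:32756076-32756105, minus strand): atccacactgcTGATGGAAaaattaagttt
In AARS the motif began 187 bases before the annotated start and in YARS2 197 bases before it. In CARS, GARS and IARS it began 2, 33 and 13 bases before the start, and in TARS and NARS 2 and 14 bases after it. The eighth gene was MARS, which has no values here. A match is a description of letters in a window and does not show that a factor binds there.

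Cytosolic synthetases were higher in ALDH-positive than in ALDH-negative cells for AARS, CARS, SARS and GARS by about 2-fold or more, and for 5 others by less. An additive limma model over the 4 arrays, with terms for ALDH status and DOX, tested the mean ALDH difference of each gene and adjusted p over 12365 genes by Benjamini and Hochberg. Each gene has 1 residual degree of freedom before moderation. That degree of freedom is the gap between the ALDH differences of the control and DOX arrays, not a spread of replicates. A shift of the ALDH difference with DOX, as described below, therefore counts as residual spread. The p-values reflect only how these arrays spread, and that spread may be technical. At an adjusted p under 0.05, 9 of 18 cytosolic members rose and 1 fell, while none of 15 mitochondrial members rose and 1 fell. The same fit called 13.5% of all genes higher and 9.58% lower. It lets variance depend on level, and brighter genes tended to have smaller standard errors. IARS, at 12.49 to 12.91, passed at 0.37 ± 0.10, while WARS2, at 9.76 to 10.52, did not at 0.48 ± 0.24. The counts of cytosolic and mitochondrial members, and the shares of all genes, are not matched for level. The cytosolic members had a median ALDH difference of 0.34 on the log2 scale and the mitochondrial ones -0.20, beside 0.03 over all genes tested.

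**Figure D1:**
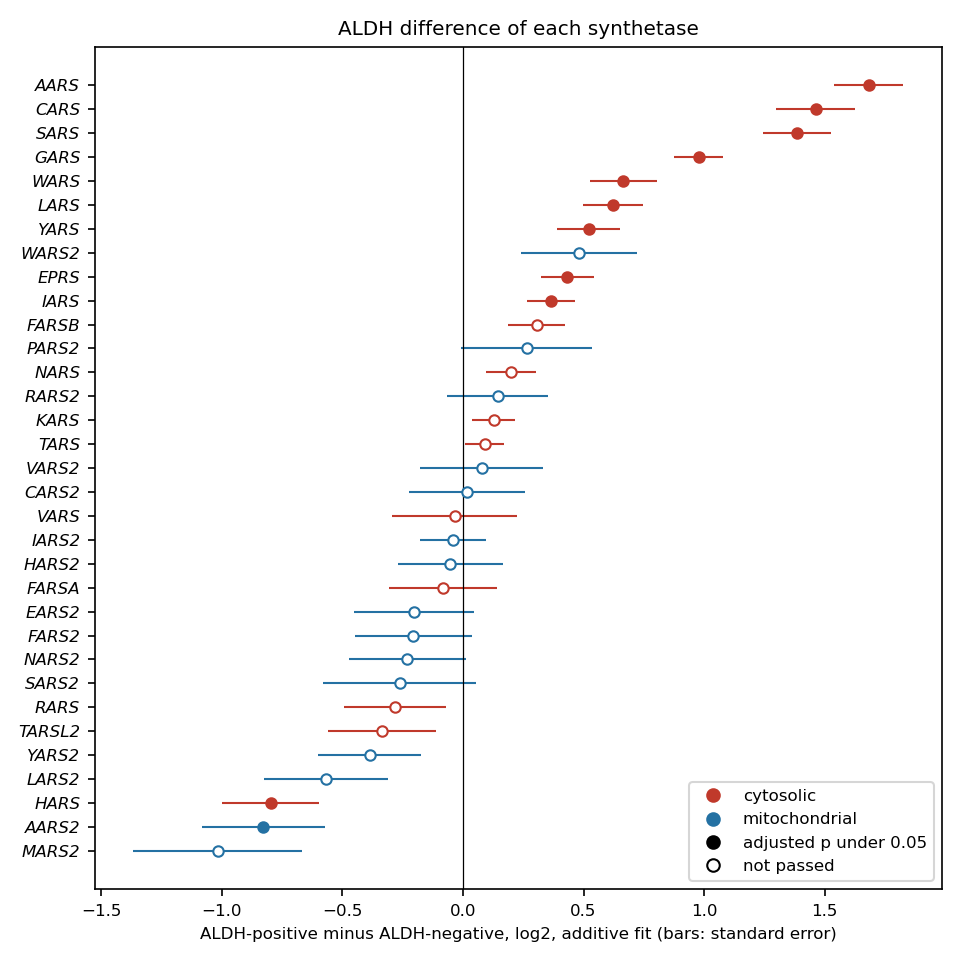
ALDH difference of the 33 measured synthetases on the log2 scale, from the additive limma fit over 4 arrays, with bars of 1 standard error; red is cytosolic, blue mitochondrial, and filled points have an adjusted p under 0.05. The 9 filled points to the right of 0 are all cytosolic, and HARS and AARS2 are the filled points to the left.

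AARS, the alanyl enzyme, had log2 levels of 12.58 (control) and 12.66 (DOX) in ALDH-positive cells and of 10.88 (control) and 11.00 (DOX) in ALDH-negative cells. Both ALDH-positive arrays lay above both ALDH-negative ones, as in 35.6% of all genes. The DOX differences were 0.07 and 0.12, and the ALDH difference was 1.68 ± 0.14 (SE, limma adjusted p = 1.41e-05). CARS, the cysteinyl enzyme, stood at 12.00, 12.25, 10.55 and 10.78 in the same order of arrays, and rose by 1.46 ± 0.16 (limma adjusted p = 8.58e-05). Of its 4 probe sets, 3 were higher in both pairs, by 1.36 to 2.14, and the dimmest reached 6.87 in the ALDH-positive control and stayed under 6 in the other arrays.

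SARS, which charges serine tRNA and also supplies the precursor of selenocysteine tRNA, was at 12.43 and 12.71 in ALDH-positive and 11.14 and 11.23 in ALDH-negative cells, control before DOX. Its rise was 1.38 ± 0.14 (limma adjusted p = 4.17e-05), and its second probe set gave 1.55 and 1.48 in the control and DOX pairs. GARS, whose gene makes both the cytosolic and the mitochondrial glycyl enzyme, was at 13.12 and 13.25 in ALDH-positive against 12.22 and 12.19 in ALDH-negative cells. It rose by 0.98 ± 0.10 (limma adjusted p = 4.28e-05). These 4 genes showed the highest ALDH differences of the family. The groups did not overlap in any of them, and 35.6% of all genes were likewise higher in both ALDH-positive arrays.

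WARS, the tryptophanyl enzyme that interferon also induces, was at 12.10 and 12.33 in ALDH-positive against 11.50 and 11.60 in ALDH-negative cells, a rise of 0.66 ± 0.14 (limma adjusted p = 0.00498). Both of its probe sets were higher in both pairs, the second by 0.89 and 1.00. LARS, the leucyl enzyme that also acts as a leucine sensor for mTORC1, was at 12.42 and 12.49 against 11.83 in both ALDH-negative arrays and rose by 0.62 ± 0.12 (limma adjusted p = 0.00386). All 4 LARS probe sets lay above 0 in both pairs, between 0.25 and 0.73. YARS, for tyrosine, was at 12.31 and 12.22 against 11.74 and 11.75 and rose by 0.52 ± 0.13 (limma adjusted p = 0.0140).

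EPRS, a fused enzyme for glutamate and proline, was at 12.72 and 12.63 in ALDH-positive and 12.29 and 12.19 in ALDH-negative cells. IARS, for isoleucine, was at 12.85 and 12.91 against 12.53 and 12.49. The groups did not overlap in either gene (35.6% of all genes lay higher in this way). The rises were small, 0.43 ± 0.11 for EPRS and 0.37 ± 0.10 for IARS (limma adjusted p = 0.0135 and 0.0193). Another EPRS probe set went apart in the DOX pair, at -0.50 against 0.44 and 0.54 for the others. With 1 variance prior for all levels, 4 of the 9 genes kept an adjusted p under 0.05 (AARS, CARS, SARS and GARS) and no member fell, against 8.07% of all genes called higher and 4.28% lower. EPRS, IARS and YARS also lost the call without the filter on level and with arrays centred on the measured genes, and EPRS with the mean of its probe sets.

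The other 8 cytosolic members did not all lie on the same side. FARSB, the beta subunit of the phenylalanyl enzyme, differed by 0.31 ± 0.12 (limma adjusted p = 0.0782), while the alpha subunit FARSA was at -0.08 ± 0.23. In the control pair 1 of the beta subunit's dimmer probe sets went the other way from its brightest, at 5.78, under background, in the ALDH-positive array and 6.43 in the other. In the DOX pair both dimmer probe sets lay below 0, against 0.28 for the brightest. The one above background in both arrays was at -0.37. FARSB's fitted difference was -0.15 with the mean of probe sets. Without shared probe sets it was -0.61, from a single probe set that reached a level of 6 only in the ALDH-negative control. Neither difference passed. NARS (0.20), KARS (0.13), TARS (0.09), VARS (-0.03), RARS (-0.28) and TARSL2 (-0.34) did not pass either. NARS and TARS carry the motif near their starts. The brightest TARS probe set lay between 13.02 and 13.14 in all 4 arrays, while a dimmer one was at 7.95 and 7.27 in ALDH-positive and 6.43 and 6.41 in ALDH-negative cells.

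HARS, the histidyl enzyme, was the cytosolic member that fell in ALDH-positive cells. It was at 10.19 and 10.40 in ALDH-positive and 11.01 and 11.17 in ALDH-negative cells, without overlap (30.2% of all genes lay lower in this way). The fitted value was -0.80 ± 0.20 (limma adjusted p = 0.0140, or 0.0517 with 1 variance prior for all levels and 0.0619 without the filter on level). HARS2, its mitochondrial counterpart, lies next to it on chromosome 5 in the opposite direction, with 84 bases between the starts of the 2 genes. HARS2 was at 10.21 and 10.49 against 10.35 and 10.46, so that the groups overlapped, with a difference of -0.05 ± 0.22 (limma adjusted p = 0.897). The stretch between both starts, which holds neither form of the motif, is shown because the levels of the genes on either side of it differed in this way (GRCh38.p14, plus strand, with HARS read to the left and HARS2 to the right).
HARS to HARS2 (chr5:140691371-140691454): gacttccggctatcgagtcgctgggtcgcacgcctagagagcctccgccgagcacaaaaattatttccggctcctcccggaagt

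A list of 12 cytosolic synthetases reported as part of the ATF4 programme, drawn up from general knowledge with earlier results of these arrays known, had 11 measured members. All 9 genes that rose were on it, and the members that did not pass were NARS and TARS. None of the other 7 cytosolic members rose and HARS fell. The list's median ALDH difference was 0.62, against -0.08 for the other cytosolic members. Since earlier results were known when the list was made, this split is a description and no test of the list. Of the 9 genes that rose, 4 had the motif (AARS, CARS, GARS and IARS), 3 had a window without it (SARS, EPRS and WARS) and 2 had no window (LARS and YARS). Of the 8 cytosolic members that did not pass, 2 had the motif (NARS and TARS), 4 had a window without it and 2 had no window. HARS had a window without it. A link to ATF4 was not tested. By the architecture of the catalytic domain, 5 of 7 cytosolic enzymes of class I rose, and 3 of 10 of class II, beside 13.5% of all genes. EPRS spans both. In the multisynthetase complex 3 of 5 measured enzymes rose (EPRS, IARS and LARS), with a median of 0.37, against 6 of 13 outside it, with a median of 0.30. These differences between classes, and between the complex and the rest, were not tested.

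**Figure D2:**
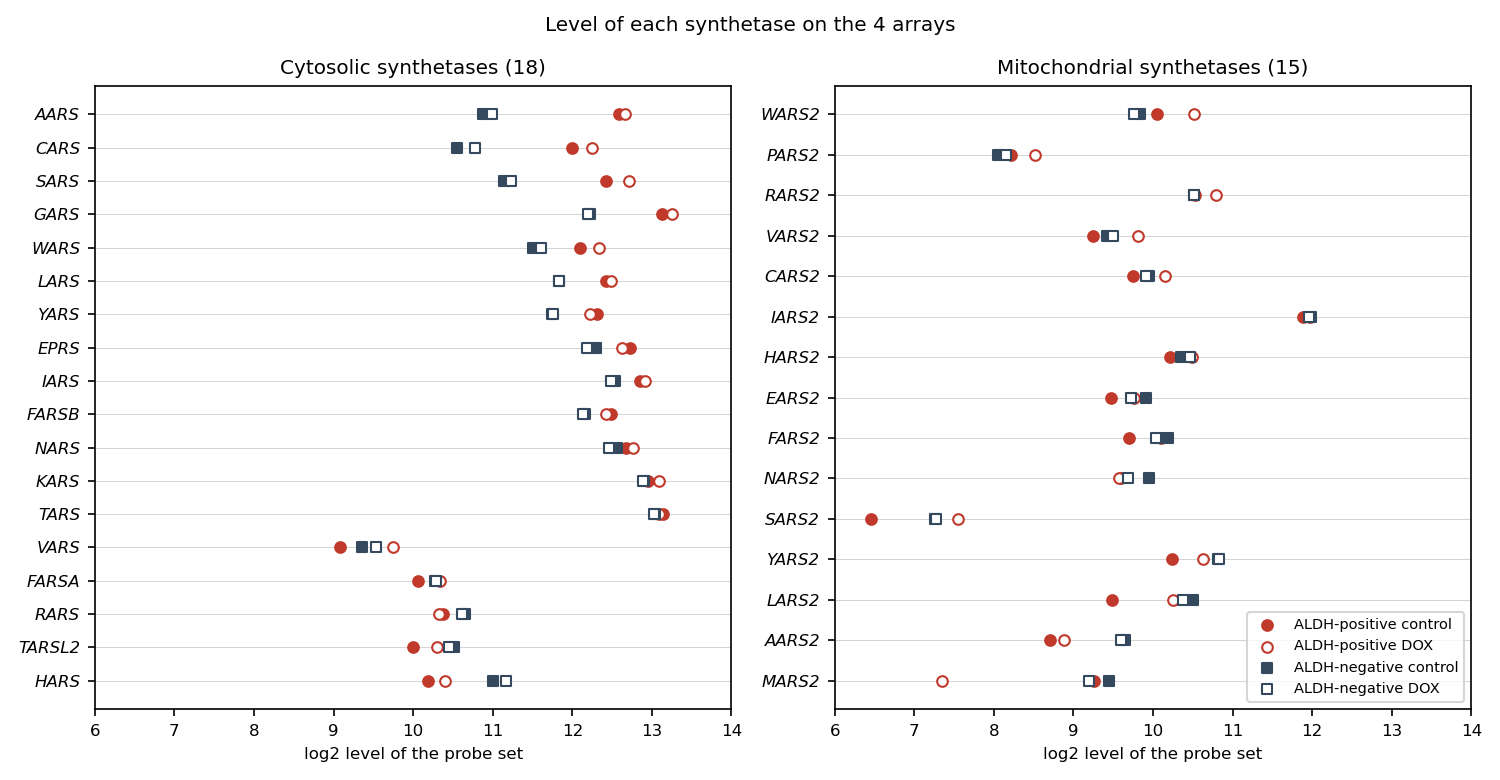
Log2 level of the probe set that stands for each of the 18 cytosolic and 15 mitochondrial synthetases in the 4 arrays, ordered by the ALDH difference; circles are ALDH-positive, squares ALDH-negative, and open symbols DOX. In the upper rows of the cytosolic panel both circles lie to the right of both squares, as for AARS at 12.58 and 12.66 against 10.88 and 11.00, while the filled circle of ALDH-positive control is leftmost for 10 of the 15 mitochondrial genes; levels of different genes are not comparable.

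AARS2 was the mitochondrial member that passed. This alanyl enzyme of mitochondria was at 8.70 and 8.89 in ALDH-positive and 9.64 and 9.60 in ALDH-negative cells and fell, by a fitted -0.83 ± 0.26 (limma adjusted p = 0.0349). The groups did not overlap (30.2% of all genes lay lower in this way), and the second probe set was also lower, by -0.87 and -0.26. The call was lost under 4 alternatives, with adjusted p between 0.0511 and 0.108. MARS2, the mitochondrial methionyl enzyme, had a larger difference of -1.02 ± 0.35 that did not pass (limma adjusted p = 0.0529, or 0.0207 with a level of 7 required). WARS2 was the highest at 0.48 ± 0.24 (limma adjusted p = 0.175), and the other 12 lay between -0.57 for LARS2 and 0.26 for PARS2. With the mean of its probe sets WARS2 was at 0.23.

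Set side by side for the same amino acid, the cytosolic enzyme had the higher ALDH difference in 11 of 14 combinations in the control arrays and in 9 of 14 in the DOX arrays. EPRS stands in both the glutamate and the proline combination, FARSA in that for phenylalanine. Alanine had the widest gap, with AARS at 1.70 and AARS2 at -0.94 in the control pair and 1.66 and -0.71 in the DOX pair. Serine (1.29 for SARS and -0.80 for SARS2) and cysteine (1.45 for CARS and -0.21 for CARS2) followed in the control pair, and leucine was at 0.59 for LARS and -1.02 for LARS2. Histidine and arginine went the other way in both pairs, with cytosolic minus mitochondrial differences of -0.69 and -0.80 for histidine and -0.29 and -0.57 for arginine. The valine enzymes differed by -0.11 in both pairs.

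**Figure D3:**
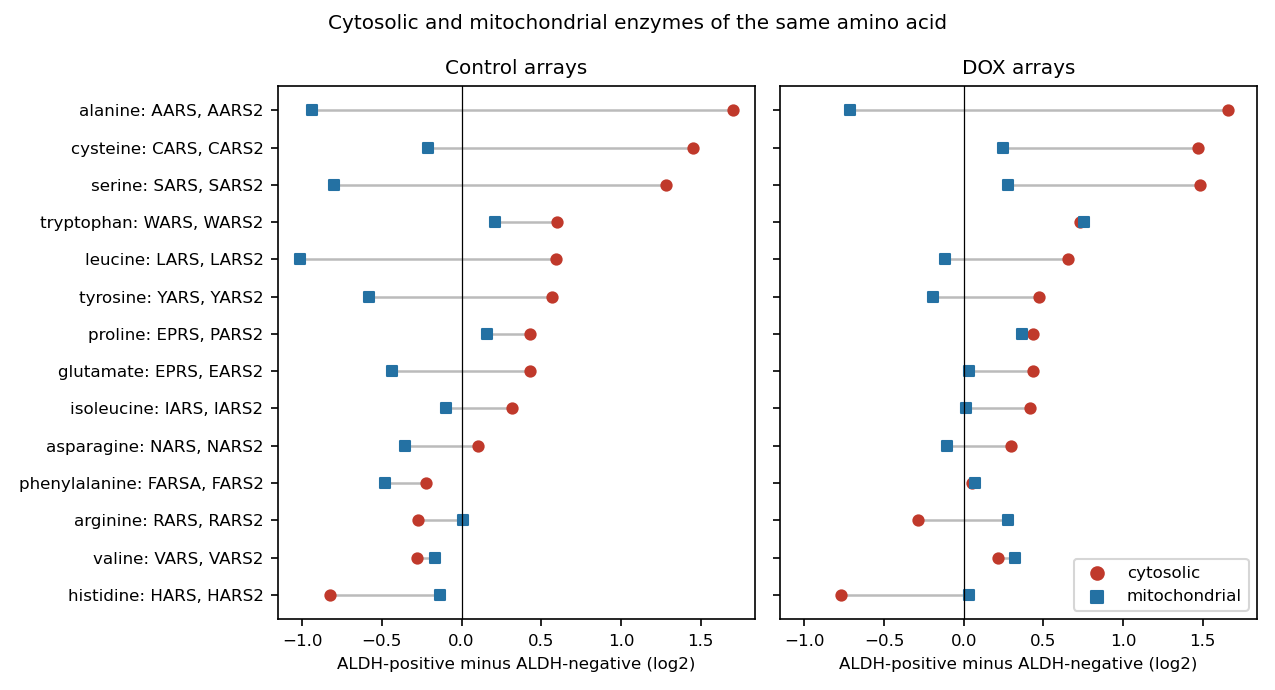
ALDH difference on the log2 scale of the cytosolic (red circles) and mitochondrial (blue squares) enzyme for the same amino acid, in the control arrays on the left and the DOX arrays on the right, 1 array in each group. The circle lies to the right of the square in 11 of 14 rows on the left and 9 of 14 on the right, with the widest gap for alanine.

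Taken pair by pair, the ALDH difference of most mitochondrial enzymes lay higher with DOX than without. It was higher for 14 of 15 mitochondrial members, all but MARS2, and for 13 of 18 cytosolic ones, beside 60.5% of all genes. The median shift was 0.39 and 0.09, beside 0.11. Taking the mean of probe sets, it was higher for 12 of 15 and 9 of 18, with median shifts of 0.22 and -0.002. With arrays centred on the median of the measured genes it was higher for 13 of 15 and 7 of 18, with median shifts of 0.25 and -0.06. Each pair has 1 array a group and so no test. In the control arrays 3 members were 2-fold or more higher (AARS, CARS and SARS), against 6.09% of 12052 genes, and 1 was lower (LARS2), against 4.40%. In the DOX arrays 4 were higher (these 3 and GARS at 1.05), against 11.4% of 12228 genes, and 1 was lower (MARS2 at -1.84), against 5.32%. The cytosolic medians were 0.32 and 0.36, beside -0.00 and 0.08 over all genes. Without shared probe sets they were 0.10 and 0.25, over the 13 and 12 members left, and with that centring 0.35 and 0.24, so that their order turned. The mitochondrial medians were -0.21 and 0.04 (the second -0.08 with that centring), with 3 of 15 above 0 in the control arrays (49.6% of all genes) and 10 of 15 in the DOX arrays (55.7%).

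These pairs share no array. Across the 18 cytosolic members Pearson's r between them was 0.974 and Spearman's rho 0.957, and across the 15 mitochondrial ones r was 0.299 and rho 0.557, beside 0.743 and 0.687 across 12365 genes. Without MARS2 the mitochondrial r was 0.716 and rho 0.653. Genes measured on the same arrays are not independent replicates, and the values are a description. Both ALDH-positive arrays lay above both ALDH-negative arrays for 13 cytosolic and 3 mitochondrial members (35.6% of all genes), and below them for 3 and 4 (30.2%). The ALDH-positive control array was the lowest of the 4 for 10 of 15 mitochondrial and 4 of 18 cytosolic members, beside 29.2% of all genes.

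**Figure D4:**
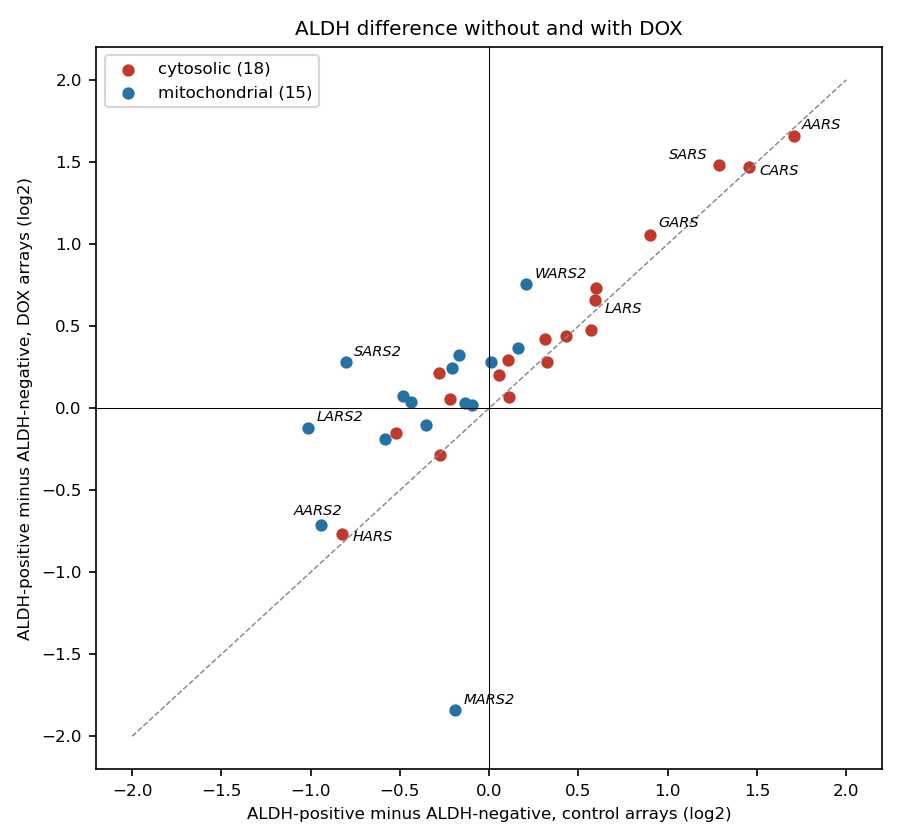
ALDH-positive minus ALDH-negative log2 level in the control arrays (x axis) and in the DOX arrays (y axis) for 18 cytosolic (red) and 15 mitochondrial (blue) synthetases; the dashed line marks equal differences. Cytosolic points follow the line from HARS at -0.82 and -0.77 to AARS at 1.70 and 1.66, while SARS2, LARS2 and WARS2 lie above it and MARS2, at -0.19 and -1.84, far below.

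In the additive limma fit none of the 33 synthetases passed for DOX, and 1 gene of 12365 did (0.00809% higher, 0% lower). At an unadjusted p under 0.05 there was 1 member, MARS2, against 368 genes higher and 284 lower. MARS2 had the smallest p, with -1.08 ± 0.35 (limma adjusted p = 0.855), then SARS2 with 0.56 ± 0.32 (limma adjusted p = 0.916) and VARS with 0.43 ± 0.26 (limma adjusted p = 0.919). MARS2 was lower with DOX in both pairs and the other 2 genes were higher in both.

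In the ALDH-negative pair no member was 2-fold different, and the 33 differences lay between -0.27 for NARS2 and 0.23 for CARS. The background there was 0.271% of 11819 genes higher and 0.0508% lower. The medians were -0.01 for cytosolic and -0.04 for mitochondrial members, beside -0.00 for all genes, and 13 of 33 members lay above 0 against 48.7% of all genes.

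In the ALDH-positive pair the differences were wider, and those of mitochondrial enzymes lay mostly above 0. The shift of the ALDH difference with DOX, given above, is this DOX difference minus that in ALDH-negative cells. Both use the ALDH-positive control array, as does the count of genes lowest in it, and are not separate observations. The mitochondrial median was 0.31, with 13 of 15 above 0, against 0.11 and 13 of 18 for cytosolic members. With arrays centred on the median of the measured genes the medians were 0.18, with 12 of 15 above 0, and -0.02, with 8 of 18. With the mean of probe sets the cytosolic median was also -0.02. All genes in this pair had a median of 0.12, with 60.9% above 0. By size, 1 member was 2-fold higher (SARS2), against 3.47% of 12151 genes, and 1 was lower (MARS2), against 2.30%. With arrays centred on the median of the measured genes, SARS2 was under 2-fold. At 1.5-fold this pair had 3 members higher (14.6% of genes) and 1 lower (6.82%), and the ALDH-negative pair had none (1.15% and 0.618%). The same size gave 6 higher (13.8%) and 4 lower (12.3%) in the ALDH comparison of control arrays, and 7 higher (22.9%) and 3 lower (12.6%) in that of DOX arrays.

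SARS2, the mitochondrial seryl enzyme, was at 6.45 without and 7.55 with DOX in ALDH-positive cells, and at 7.25 without and 7.27 with DOX in the ALDH-negative fraction. These levels come from a single probe set, and 6.45 lies near the background of 6. The control array of ALDH-positive cells stood below the other 3, and the DOX difference was 1.10 in the first fraction and 0.02 in the second. LARS2, the mitochondrial leucyl enzyme, stood at 9.48, 10.25, 10.50 and 10.37 in that order of arrays, also lowest in the ALDH-positive control. Its DOX differences were 0.77 and -0.13, and its second probe set gave 0.83 and -0.18. The brightest probe set of WARS2, the mitochondrial tryptophanyl enzyme, was instead high in a single array, at 10.05, 10.52, 9.84 and 9.76 in that order. Its second probe set, at 9.35, 9.25, 9.06 and 9.26, was not highest in the ALDH-positive DOX array.

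MARS2 was low in 1 array. Its levels were 9.25 without and 7.35 with DOX in ALDH-positive cells, and 9.44 without and 9.19 with DOX in the ALDH-negative fraction, read from a single probe set. The DOX difference was -1.90 in the first fraction and -0.25 in the second. The gap between these DOX differences was -1.65 for MARS2, 1.08 for SARS2 and 0.90 for LARS2, and 6.19% of all genes had a gap of 1 or more either way. A gap within 4 single arrays has no residual degree of freedom and was not tested.

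Dimmer probe sets of the same genes lay lower than the brightest in this pair. Of 24 dimmer probe sets with a level of 6 in every array, in 19 members, 17 had a lower DOX difference than the brightest probe set of their gene, with a median gap of -0.22, against 15 and -0.03 in the ALDH-negative pair. In CARS 1 such probe set was at -0.86, while the 2 brightest were at 0.10 and 0.25. EPRS had a probe set at -1.37 beside -0.09 and 0.05. Of 19 members with several probe sets that reached a level of 6, all probe sets had the same sign in 9. For the rest, the direction after DOX in ALDH-positive cells depends on the probe set, as in SARS (0.29 and -0.30). The disagreement was 0.3 or more each way for CARS2, TARSL2 and VARS.

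**Figure D5:**
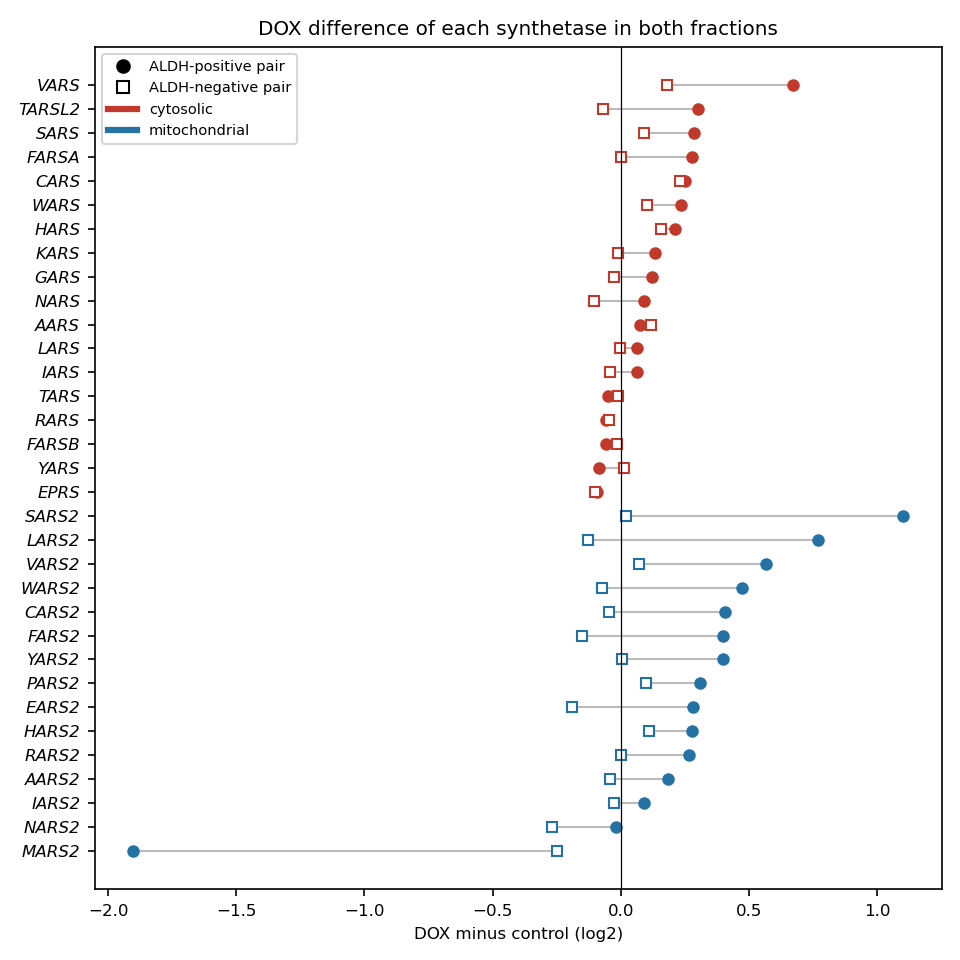
DOX minus control log2 level of each synthetase in the ALDH-positive pair (filled circles) and the ALDH-negative pair (open squares), with cytosolic genes in red above and mitochondrial genes in blue below. Squares stay between -0.27 and 0.23, while circles reach 1.10 for SARS2 and -1.90 for MARS2.

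Other genes of tRNA charging and translation were read from lists drawn up with earlier results known, so their counts are descriptions. Of 32 tested genes of the ATF4 programme 23 rose in ALDH-positive cells and none fell, beside 13.5% and 9.58% of all genes, with a median of 0.94. ATF4 itself, named after its value was seen, rose by 0.84 ± 0.09 (limma adjusted p = 8.25e-05). CHAC1, a glutathione-degrading enzyme, rose too (limma adjusted p = 3.97e-06), from 6.08 and 5.44 in ALDH-negative to 10.58 and 9.66 in ALDH-positive cells, and no exact difference is given because the lowest level is under background. PCK2, which makes phosphoenolpyruvate in mitochondria, rose by 2.81, the stress regulator NUPR1 by 2.63 and CBS, of cysteine synthesis, by 2.53. In the other 3 lists few members passed, against the same shares of all genes, and no list was tested against them. Among 9 tested scaffold and other charging factors 1 rose and 2 fell. DTD1, a deacylase that removes D-amino acids from tRNA, rose by 0.58 ± 0.17 (limma adjusted p = 0.0259). AIMP1, a scaffold of the multisynthetase complex, fell (-0.47 ± 0.16, limma adjusted p = 0.0476), as did MTFMT, which formylates the mitochondrial initiator tRNA (-0.84 ± 0.23, limma adjusted p = 0.0217). Of 14 mitochondrial translation factors 1 rose, the initiation factor MTIF2 at 0.53 ± 0.16 (limma adjusted p = 0.0337), and of 6 genes around cytosolic elongation 1 rose, EEF1D at 0.39 ± 0.09 (limma adjusted p = 0.00675). No gene of these 2 lists fell. None of the 4 lists had a member that passed for DOX.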

How the data were processed

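Total RNA of sorted SUM159 cells was hybridised to Affymetrix arrays, 1 for each of 4 groups. The deposited values are log2 probe set levels that the authors made with RMA, per the submitters' processing notes, which name no version. They were used without further scaling. Of 54675 probe sets, 41097 had 1 gene in an annotation dated 2016, 1801 several and 11777 none. Each gene was read from its probe set of highest mean level. The 12365 of 19775 genes that reached a log2 level of 6 somewhere were fitted in R 4.3.3 with limma 3.58.1 (eBayes, variance trend), an additive model of ALDH status and DOX with a prior of 11.6 degrees of freedom. Tests are two-sided, with Benjamini-Hochberg adjustment. Pairs of arrays were called at 2-fold, with that level in either array, and carry no p-value. The fit was tested on simulated data. Members and lists were chosen with earlier results of these data known. Genes whose levels are printed passed the ALDH fit, were 2-fold in a pair or were extremes of their class. HARS2, TARS and dim FARSB probe sets were added after their values were seen. From other lists, up to 4 of the largest differences that passed are given. Alternatives covered scaling, level, probe sets, size and variance prior. Promoter windows are from RefSeq. Other steps ran in Python 3.11.15 with pandas 2.3.3 and numpy 2.4.6. The number of arrays limits the precision.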

Additional observations from a re-analysis of the deposited data

How the results depend on the processing

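The cytosolic median of the ALDH difference ran from 0.10 (without shared probe sets) to 0.41 in the control arrays and from 0.24 to 0.42 in the DOX arrays, and the mitochondrial one from -0.23 to -0.18 and from -0.08 to 0.04. The DOX medians in ALDH-positive cells ran from -0.02 to 0.17 for cytosolic and from 0.18 to 0.31 for mitochondrial members, and in ALDH-negative cells from -0.04 to 0.01 and from -0.05 to 0.00. Cytosolic members that rose numbered 9, and 8 with the mean of probe sets or with GARS and KARS left out. They numbered 6 without the filter on level and also with arrays centred on the measured genes. Without shared probe sets, which left EPRS, GARS, IARS and LARS with no probe set, 5 rose. With 1 variance prior for all levels 4 rose. The cytosolic fall was 0 genes without the filter on level and with that prior. The mitochondrial fall was 0 in these 2 settings, with levels under 6 set to 6 and with the mean of probe sets, and 2 genes with a level of 7; the cause was not tested. At 1.5-fold, members higher and lower were 6 and 4 in the control ALDH pair (3 and 1 at 2-fold), 7 and 3 in the DOX ALDH pair (4 and 1), and 3 higher in the ALDH-positive DOX pair (1). The single lower member of the control ALDH pair became 0 with cyclic loess and with arrays centred on the measured genes, and so did the higher one of the ALDH-positive DOX pair with that centring, an alternative chosen after seeing the data. No called member changed sign. No paired analysis was possible because each group has 1 array, and no array could be left out of the additive fit, since 3 arrays leave no residual degree of freedom.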
